A study of Mus musculus with 120 samples.

Results

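A set of 5 genes of the neurexin and neuroligin families was examined here, Nrxn2, Nrxn3, Nlgn1, Nlgn2 and Nlgn3, which are 5 of the 21631 coding genes on X and the autosomes. A DNA window was assigned to a gene when it overlapped the gene body in RefSeq GRCm38, which has the coordinates of mm10, or lay within 10 kb of it. The windows are those that the authors called as differentially methylated between genotypes, so the values below chose the windows and are given as a description without a test. Other genes of the 2 families were not analysed here. Together the 5 genes held 9 called windows of 8961 in the deposited list, in 4 of the 5 genes, and Nlgn3 held 0.

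Genomic DNA from hippocampus and from blood was bisulfite sequenced across the whole genome in wild-type mice and in mice labelled APP-nlgf, called App-NLGF below. In App-NLGF mice the endogenous App gene is knocked in with a humanised amyloid-beta region and the Swedish, Iberian and Arctic mutations, in all cells, and the wild-type mice lack these alleles. Mice were sampled at postnatal week 3, 8 or 24, and each combination of tissue, genotype and age has 10 libraries, 5 female and 5 male. The authors set App-NLGF against wild type in 6 comparisons, 1 for each tissue and age, and adjusted for sex. The labels name no treatment. Each called window spans 1 kb, has an authors' adjusted p under 0.1, and differs by at least 10 percentage points. The sign was taken as App-NLGF minus wild type from the name of the comparison, so all directions given here depend on that order. Without levels, coverage or values per library, which were not analysed here, neither the depth behind a difference nor its spread between animals is known. Both tissues are mixtures of cell types, and a changed share of a cell type cannot be told apart from changed methylation within cells. A list of windows does not allow a check of the labelled tissues against their marker genes.

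Neurexins are presynaptic cell-surface receptors, and neuroligins are postsynaptic adhesion proteins that bind them across the synaptic cleft. The pair helps to specify and organise synapses, with neuroligin 1 found mainly at excitatory synapses, neuroligin 2 at inhibitory synapses and neuroligin 3 at both. Neurexin genes are known for long alpha transcripts, shorter forms that begin at internal starts, and extensive alternative splicing. Methylation at CpG sites is commonly low at CpG-rich starts of active genes and higher across gene bodies.

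Starts of 3 of these genes and of a neighbour are shown first, because window positions are measured from the former and a called window covers the latter. Each stretch is the 250 bases before an annotated start, from RefSeq GRCm38.p6, read 5′ to 3′ on the gene's own strand, with every CG in capitals as the dinucleotide at which CpG methylation occurs. For Nlgn2, Nlgn1 and Nrxn3 the start shown is the one nearest to a called window of that gene. Plscr3, a neighbour of Nlgn2 that encodes a phospholipid scramblase, is shown because all 3 of its annotated starts lie inside the window assigned to Nlgn2.
Plscr3, chr11:69846122-69846371, plus strand: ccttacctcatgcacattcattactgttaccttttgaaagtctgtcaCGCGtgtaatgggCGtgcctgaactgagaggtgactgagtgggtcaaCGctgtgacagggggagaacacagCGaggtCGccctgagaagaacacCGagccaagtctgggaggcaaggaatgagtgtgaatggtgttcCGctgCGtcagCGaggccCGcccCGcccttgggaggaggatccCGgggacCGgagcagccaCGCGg
Nlgn2, chr11:69837785-69838034, minus strand: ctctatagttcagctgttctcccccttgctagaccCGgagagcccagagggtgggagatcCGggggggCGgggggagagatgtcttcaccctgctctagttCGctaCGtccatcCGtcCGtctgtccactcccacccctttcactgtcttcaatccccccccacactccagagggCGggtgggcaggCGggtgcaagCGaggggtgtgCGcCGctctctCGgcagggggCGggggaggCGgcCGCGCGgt
Nlgn1 internal start, chr3:26153987-26154236, minus strand: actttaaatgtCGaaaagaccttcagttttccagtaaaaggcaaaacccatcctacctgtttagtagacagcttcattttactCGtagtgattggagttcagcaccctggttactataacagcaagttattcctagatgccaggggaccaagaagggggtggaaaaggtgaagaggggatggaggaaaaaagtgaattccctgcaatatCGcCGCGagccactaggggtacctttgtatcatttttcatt
Nrxn3 internal start, chr12:89812233-89812482, plus strand: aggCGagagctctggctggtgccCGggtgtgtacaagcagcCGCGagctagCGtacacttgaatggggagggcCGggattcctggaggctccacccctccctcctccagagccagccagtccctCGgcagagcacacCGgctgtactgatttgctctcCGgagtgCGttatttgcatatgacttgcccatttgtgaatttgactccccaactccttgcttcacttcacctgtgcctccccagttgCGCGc
The Plscr3 stretch holds 16 CG dinucleotides, and 25.4% of the 32851 stretches of this length in the promoter table hold at least as many. The Nlgn2 stretch holds 18, a count reached by 21.7%, and the Nrxn3 stretch holds 12, reached by 33.5%. The Nlgn1 internal start is poorer in CG, with 5 against a median of 6 over the table. The letters CG read the same on both strands and their count says nothing about methylation in these animals. All 250 bases of the Plscr3 stretch lie inside a called window, and the stretches of the other genes lie outside the called windows.

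Nrxn3 encodes a presynaptic neurexin and is 1612 kb long (chr12:88722701-90334935, plus strand), the 9th longest coding gene in the table. It held 4 called windows, all inside the gene and all in blood. In the authors' deposited table the week 3 window stood at -31.7 percentage points (chr12:89624001-89625000, adjusted p = 0.0912). This difference was the 7th largest of the 424 lower windows of its list, while its adjusted p was near the limit for calling. At week 8 the authors' deposited table has -18.8 points at chr12:89455001-89456000 (adjusted p = 0.0815) and -14.8 points at chr12:89955001-89956000 (adjusted p = 0.0242). At week 24 the direction was the opposite, with 12.1 points at chr12:90300001-90301000 in the authors' deposited table (adjusted p = 0.0819). The week 24 window was thus the highest of the 4 and the only one higher in App-NLGF, and it lay at another place in the gene than the lower ones. No 2 of these windows coincided, and they stood 168, 330 and 344 kb apart.

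Relative to the internal start of Nrxn3, the farthest downstream of 3 annotated starts, 2 of the windows lay before it and 2 after it. The week 8 windows fell on both sides, 356 kb upstream and 143 kb downstream. The week 3 window lay 187 kb upstream and the week 24 window 488 kb downstream. The Nrxn3 window nearest to an annotated start was thus 143 kb from it, and the week 24 window was 33.9 kb from the end of the gene. The windows stood alone in their lists, with the next window called in the same comparison 500 kb away at week 8, 1977 kb away at week 3 and 7608 kb away at week 24. No other gene of the table overlapped any of them.

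Nrxn2, the shorter of the neurexin genes examined at 114 kb (chr19:6418756-6533217), held 1 called window. It lay inside the gene at chr19:6502001-6503000, 83.2 kb from the low-coordinate end and 30.2 kb from the other end. In the authors' deposited table this window stood at -11.2 points in blood at week 8, with an adjusted p of 0.000912. That adjusted p was the smallest of the 9 windows, ranking 918th of 4526 in its list, and its difference was among the smaller ones of the members. Nrxn2 thus had a window of small size and small adjusted p, and the Nrxn3 window at week 3 had the reverse. These adjusted p come from different lists. The authors' unadjusted p was 5.55e-05 for the Nrxn3 window at week 3. For the Nrxn3 window at -14.8 points in blood at week 8 it was 7.49e-05, with an adjusted p of 0.0242. The next window called in blood at week 8 lay 139 kb away, and no other gene overlapped the Nrxn2 window.

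Nlgn1, the neuroligin of excitatory synapses, is 911 kb long (chr3:25421808-26332866, minus strand) and was the only member with a called window in hippocampus. Its hippocampal window at week 3 stood at -15.6 points in the authors' deposited table (chr3:25444001-25445000, adjusted p = 0.0790). The week 24 window in hippocampus was at -15.8 points in the authors' deposited table (chr3:26048001-26049000, adjusted p = 0.0761). The 2 differences were of like size and sign but lay 603 kb apart, the first 22.2 kb from the gene's downstream end and the second 105 kb downstream of the internal start. Hippocampus at week 8 had no called window in Nlgn1, which does not show that methylation there was equal, since the list holds called windows alone.

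In blood Nlgn1 had a lower window at week 8, at -10.9 points in the authors' deposited table (chr3:26135001-26136000, adjusted p = 0.0287). This was the smallest difference of the 9 windows and ranked 2756th of the 4024 lower windows in its list. It lay 18.0 kb downstream of the internal start, the shortest distance from a window to a start of the same gene among windows inside Nrxn3 and Nlgn1. The blood window and the hippocampal window of week 24 were 86 kb apart, so the 2 tissues shared the direction in Nlgn1 without sharing a position. Of all called windows, 88.9% were lower in blood at week 8 and 41.4% in hippocampus at week 24.

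Nlgn2, the neuroligin of inhibitory synapses, is 14.7 kb long (chr11:69823123-69837784, minus strand) and had no called window in its body. The 1 window assigned to it lay 8.22 kb upstream of its start, at chr11:69846001-69847000. In the authors' deposited table it stood at -13.0 points in blood at week 8 (adjusted p = 0.0151). Between this window and Nlgn2 lies Tmem256 (chr11:69838525-69839558), and the window itself overlaps the beginning of Plscr3 (chr11:69846372-69852058). By position the window is therefore at the Plscr3 starts printed above and belongs to Nlgn2 by distance alone. In blood at week 8, 41.9% of the 4525 windows placed on X or an autosome lay no more than 1 kb from either end of a coding gene, and of the 5 member windows 1 did, this one. The other 8 member windows lay at least 22.2 kb from any such end. The nearest window outside the 10 kb limit was another in blood at week 8, 22.1 kb from Nlgn2 and overlapping Fgf11, at -11.4 points in the authors' deposited table.

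Nlgn3, a neuroligin gene on X of 22.2 kb (chrX:101299179-101321350), had no called window in or within 50 kb of it in any of the 6 lists. Only 43 positions of 1 kb lie in or within 10 kb of it, the second lowest number among the members after the 35 of Nlgn2.

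**Figure D1:**
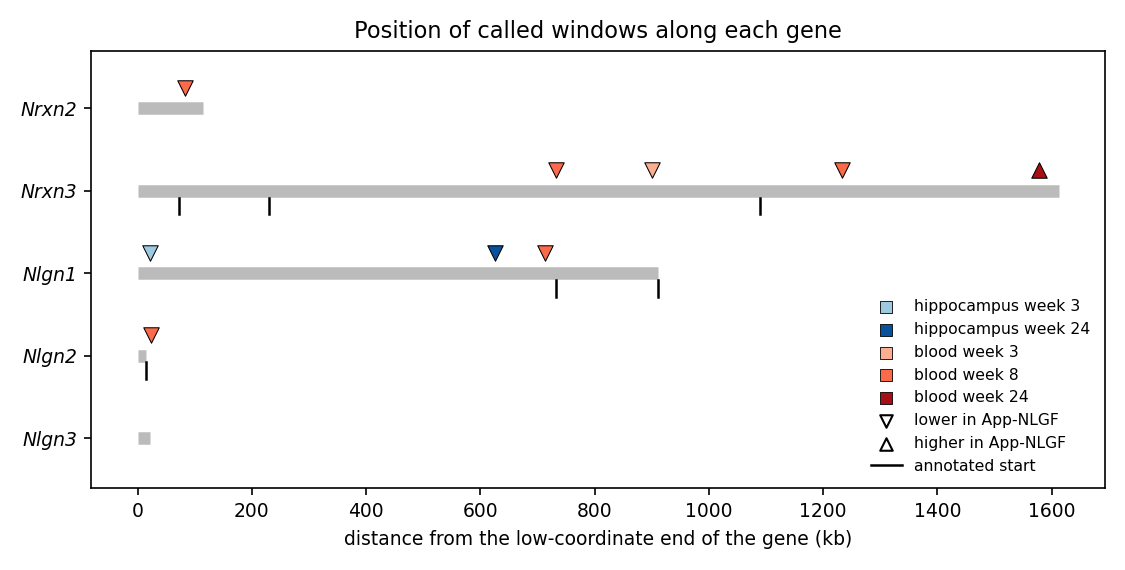
Each grey bar is a gene, drawn from its low-coordinate end in kb, with triangles at called windows coloured by comparison (pointing down for lower, up for higher in App-NLGF) and black ticks at annotated starts, which are drawn for Nrxn3, Nlgn1 and Nlgn2. Nrxn3 holds 4 windows and Nlgn1 holds 3, none at the same position, and the Nlgn2 window lies outside its gene.

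Of the members' 9 windows, 5 were called in blood at week 8, 0 in hippocampus at week 8 and 1 in each other comparison. In hippocampus at week 3, 1 of 5 members had a window, where 2.60% of coding genes did. In hippocampus at week 8, 0 of 5 did, where 1.74% of coding genes did, and at week 24 the count was 1 of 5 against 2.43%. In blood at week 3, 1 of 5 members had a window, against 2.79% of coding genes. At week 8 in blood 4 of 5 did, against 19.5%, and at week 24 the count was 1 of 5 against 1.25%. Because the members were chosen from these same calls, nothing is read from the counts themselves.

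Long genes offer more room for a window, so the same counts were set against length. The 5 genes with 10 kb on each side span 2779 positions of 1 kb, and Nrxn3 and Nlgn1 make up 94.3% of the total gene length and hold 7 of the 9 windows. In blood at week 8, 5 positions were called, or 0.180%, against 0.255% of the positions at all coding genes. A single position was called in hippocampus at week 3, in hippocampus at week 24, in blood at week 3 and in blood at week 24, which is 0.0360% each time. The shares at all coding genes were 0.0392%, 0.0371%, 0.0423% and 0.0185% in the same order. In hippocampus at week 8, 0 positions were called, against 0.0266%. These shares rest on 0 or 1 window in 5 of the 6 comparisons and on the calls that chose the genes, so nothing is read from them either.

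**Figure D2:**
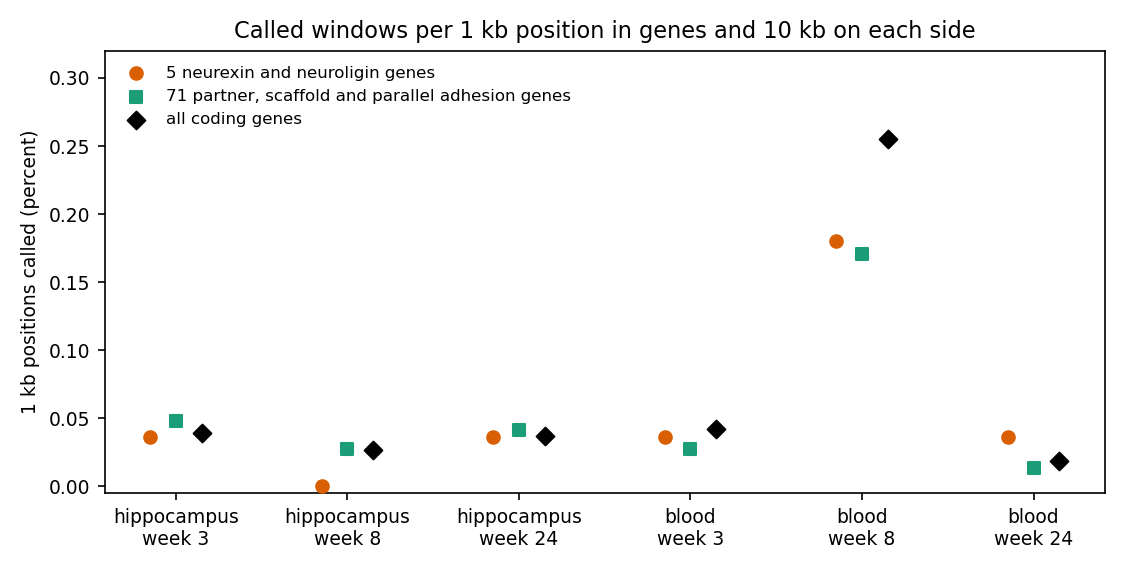
The vertical axis is the percent of 1 kb positions called in each comparison, for the 5 members (orange circles), for 71 partner, scaffold and parallel adhesion genes (green squares) and for all coding genes (black diamonds). In blood at week 8 the members stand at 0.180% and coding genes at 0.255%, and in the other comparisons all 3 symbols lie below 0.05%.

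Of the 9 windows 8 were lower in App-NLGF and 1 was higher, a split that followed the lists the windows came from in most cases. All 5 member windows in blood at week 8 were lower, as were 88.9% of the windows in that list. The Nlgn1 window in hippocampus at week 3 was lower, as were 70.5% of its list, and the Nrxn3 window in blood at week 24 was higher in a list of which 17.5% were lower. The remaining 2 went against the larger part of their lists. The Nlgn1 window in hippocampus at week 24 was lower where 41.4% of the list was lower, and the Nrxn3 window in blood at week 3 was lower where 36.8% was. In hippocampus at week 8, which held no member window, 45.4% of the list was lower.

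The sizes lay between 10.9 and 31.7 points in absolute value, with a median of 14.8 against 12.6 for all windows in the 6 lists. Within blood at week 8 the member windows at Nrxn2 and Nlgn1 were smaller than the list's median lower window of -11.6 points, and those at Nlgn2 and both places in Nrxn3 were larger. Of the 9 windows, 4 had an authors' adjusted p under 0.05, all of them among the 5 in blood at week 8, a list in which 71.1% of windows did. No member position was called in 2 lists. This is the usual case in the deposited table, where 18 of 8942 called positions (0.201%) appear in 2 or more lists.

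**Figure D3:**
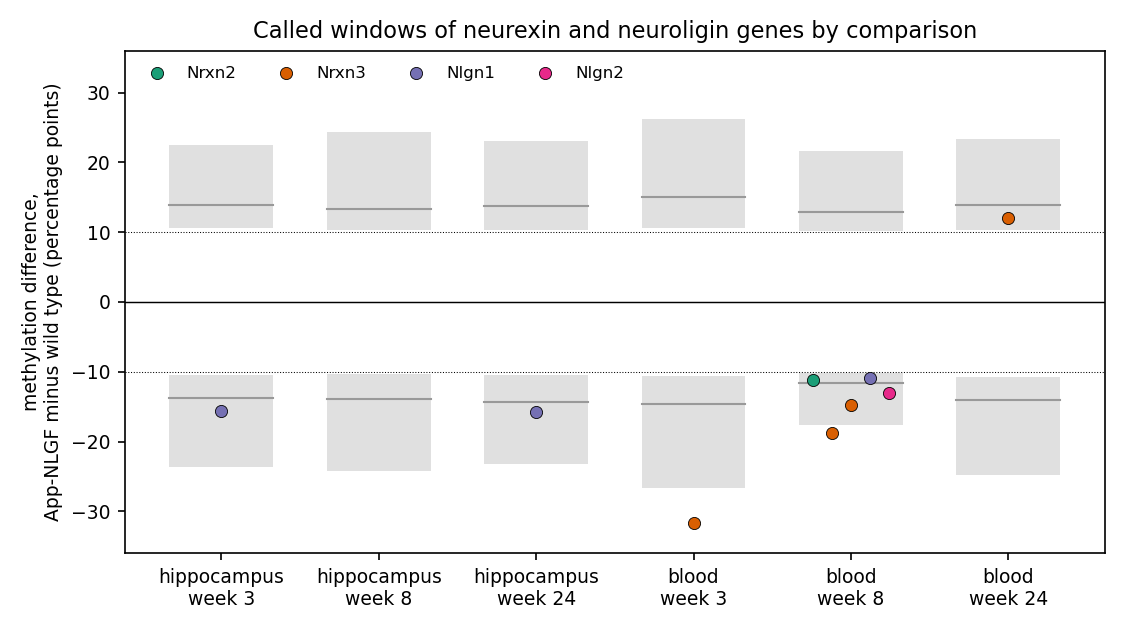
Points are the members' called windows, coloured by gene, with the methylation difference in percentage points on the vertical axis and the 6 comparisons on the horizontal axis; grey boxes span the 5th to the 95th percentile of all lower or all higher windows of that list, with a line at their median and dotted lines at 10 points. Nrxn3 in blood at week 3, at -31.7 points, and Nrxn3 in blood at week 8, at -18.8 points, lie below their grey boxes, and the other 7 windows lie within theirs.

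Genes that work with neurexins and neuroligins were taken from a list of 71 genes in 7 roles. Of these, 41 had a window in at least 1 comparison, where 26.7% of coding genes did. Of the 71 genes, 31 had one in blood at week 8, 25 with lower windows alone, 2 with higher windows alone and 4 with both, where 19.5% of coding genes had a window. The list's genes are long, with a median of 166 kb against 17.3 kb for coding genes. Per 1 kb position 0.171% were called in blood at week 8, against 0.255% at all coding genes. In hippocampus 9 of 71 genes had a window at week 3, 6 at week 8 and 11 at week 24. Per position these are 0.0479%, 0.0274% and 0.0410%, beside 0.0392%, 0.0266% and 0.0371% for coding genes. In blood 8 of 71 genes had a window at week 3 and 4 at week 24, or 0.0274% and 0.0137% per position beside 0.0423% and 0.0185%.

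Secreted partners, which bind neurexins outside the cell, have a median length of 8.22 kb, against 17.3 kb for coding genes. In blood at week 8, 8 of 16 of these genes had a window, against 19.5% of coding genes. All 11 of these windows were lower, where 88.9% of the list's windows were lower. The authors' deposited table gives -15.7 points 1.46 kb from Tafa3, -13.5 points at the larger of 2 windows in Nxph1, a neurexophilin gene, and -12.2 points at Cbln4, a cerebellin gene. Tafa2 differed in sign by comparison in the authors' deposited table, with -13.7 points in hippocampus at week 3, 10.03 points in hippocampus at week 24 and 14.9 points in blood at week 24. It also held windows of -10.1 and -11.6 points in blood at week 8 in the authors' deposited table. The windows are thus lower in 2 comparisons and higher in 2, all at different positions in the gene. Each sign was that of the larger part of its list. Lower windows made up 70.5% in hippocampus at week 3 and 88.9% in blood at week 8. Higher windows made up 58.6% in hippocampus and 82.5% in blood at week 24.

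Postsynaptic partners of neurexins have a median length of 168 kb, against 17.3 kb for coding genes. In blood at week 8, 6 of 14 had a window, against 19.5% of coding genes, with 5 windows lower and 3 higher. In the authors' deposited table the highest was Grid1, a delta glutamate receptor gene, with 19.99 points. The calsyntenin gene Clstn2 was at -21.1 points in hippocampus at week 8 and 17.1 points in blood at week 8 in the authors' deposited table. The latrophilin gene Adgrl3 was higher in blood at week 3 and week 24, at 18.9 and 12.2 points in the authors' deposited table. In those lists 63.2% and 82.5% of windows were higher. Of the 2 MDGA genes, whose proteins block neuroligins from binding neurexins, Mdga2 had windows. Among coding genes 26.7% did in at least 1 comparison, and the 2 MDGA genes have a median length of 412 kb, against 17.3 kb. In the authors' deposited table Mdga2 stood at 26.2 points in blood at week 3 and at -18.1, 10.8 and -12.9 points in blood at week 8.

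Scaffold genes on the presynaptic side had a window in 4 of 8 genes in at least 1 comparison, where 26.7% of coding genes did. Their median length was 92.0 kb, against 17.3 kb for coding genes. Cask, on X, whose protein binds the neurexin tail, was at 19.4 points in hippocampus at week 3 in the authors' deposited table. Lin7a was at 10.2 points in hippocampus at week 24 and at -11.8 points in blood at week 8 in the authors' deposited table. On the postsynaptic side, 4 of 14 scaffold genes had a window in hippocampus at week 24 and all 4 windows were lower, where 2.43% of coding genes had a window and 41.4% of the list's windows were lower. These scaffold genes are long, with a median of 209 kb against 17.3 kb for coding genes. The authors' deposited table gives -15.5 points at Dlg1, -13.0 points at Magi1 and -11.3 points at Dlg2, all of the membrane-associated guanylate kinase family. Magi2, whose protein binds neuroligins, held 3 windows in hippocampus at week 8, at -13.7, -18.4 and 12.2 points in the authors' deposited table. Week 8 blood had windows in 5 of the 14 genes, against 19.5% of coding genes, and all 8 windows were lower in a list of which 88.9% were, including Dlg3 at -13.3 points in the authors' deposited table.

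Of 3 splicing factors that act on neurexin transcripts, Khdrbs2 had windows, all lower. In the authors' deposited table these were -17.1 points in hippocampus at week 24, and -10.6 and -11.3 points in blood at week 8. In those lists 41.4% and 88.9% of windows were lower. Among coding genes 26.7% had a window in at least 1 comparison, and the 3 splicing factor genes have a median length of 173 kb. Parallel presynaptic and neurexin-like adhesion receptors had a window in 11 of 14 genes in at least 1 comparison, 6 of them with windows of both signs, where 26.7% of coding genes had a window. Their median length was 729 kb, against 17.3 kb for coding genes. At week 3 in hippocampus 6 of 14 had one, against 2.60% of coding genes, with 8 windows lower and 2 higher in a list of which 70.5% were lower. In that comparison the largest difference of either sign was in Cntnap2, a neurexin-like gene. It had 24.1 points at 1 window and -17.2 and -12.0 points at 2 others in the authors' deposited table. In the same comparison the teneurin gene Tenm2 held 3 lower windows, at -11.2, -14.8 and -15.0 points in the authors' deposited table. At week 24 in hippocampus Tenm2 stood at 10.7 and -13.9 points, and in blood at week 3 at -11.0 points, in the authors' deposited table. Ptprd, a receptor phosphatase gene, held 4 windows in blood at week 8, all lower, from -10.2 to -18.1 points in the authors' deposited table. In that comparison the genes of this role had 11 lower and 3 higher windows, in a list of which 88.9% were lower. The largest difference among them was a higher window in another gene, of 18.2 points in the authors' deposited table. In hippocampus at week 8 the teneurin gene Tenm1, on X, was at -21.5 points in the authors' deposited table.

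**Figure D4:**
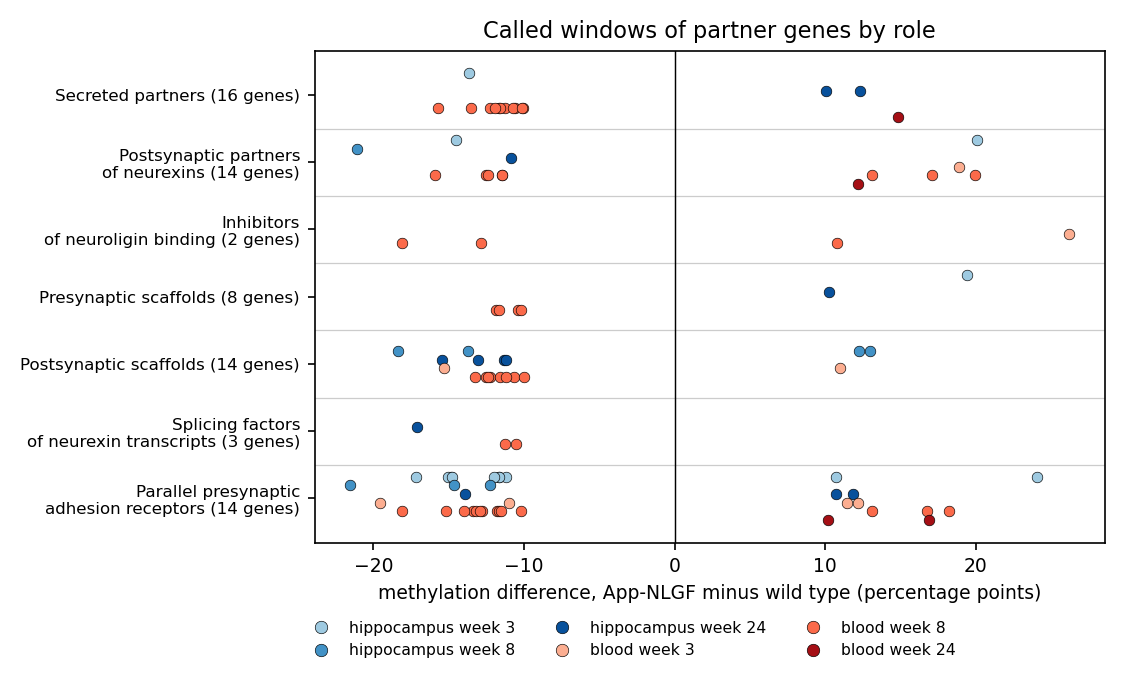
Each point is a called window of a partner, scaffold or parallel adhesion gene, grouped in rows by role and coloured by comparison. The horizontal axis is the methylation difference in percentage points. All 11 windows of secreted partners in blood at week 8 lie on the lower side, in a list of which 88.9% were lower. All 4 windows of postsynaptic scaffolds in hippocampus at week 24 do too, in a list of which 41.4% were lower. Over the 6 comparisons secreted partners have 12 lower and 3 higher windows, and postsynaptic scaffolds have 15 lower and 3 higher. Postsynaptic partners, inhibitors of neuroligin binding, presynaptic scaffolds and parallel receptors also have windows on both sides.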

How the data were processed

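The data are whole-genome bisulfite sequencing libraries of 120 samples in 12 groups of 10, mapped from their titles. The submitters' processing notes name methylKit, Bismark, Trim Galore and FastQC, and mm10 as the build. Their versions, and the authors' statistic, adjustment and coverage filter, are not stated there. The p-values and adjusted p-values are the authors' own, as deposited, and so is the methylation difference in percentage points for each 1 kb window. No columns of values per library were used, so depth is unknown and no test over animals could be made.

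Windows were assigned to genes with 10 kb on each side by Python 3.11.15 and pandas 2.3.3, using RefSeq GRCm38.p6 gene bodies on X and the autosomes. The assignment was tested on simulated windows against a brute-force search. Strand and start sites came from the RefSeq promoter table, which matched Nrxn3, Nlgn1 and Nlgn2. Exons and window sequences were not used here, so exon and intron are not told apart. All windows of the members are named. Of the partner list at most 3 genes per role and comparison are named, those with the largest absolute difference, with some exceptions. Tafa2 and Dlg2 in blood at week 8 and Tenm2 in blood at week 3 fall outside this rule. They are given beside the other windows of the same gene. A gene that this rule would name is not reported here. Plscr3, Tmem256 and Fgf11 are named for their place beside Nlgn2, Fgf11 after its value was seen. The members and the partner list were chosen with earlier results of these data known. Alternatives changed the distance, the thresholds, the merging of windows and the gene background.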

Additional observations from a re-analysis of the deposited data

How the results depend on the processing

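The member windows numbered 9, and 8, 10 and 9 when the gene body alone, 50 kb on each side or merging within 10 kb was used. With an adjusted p under 0.01, 1 remained in all, 1 in blood at week 8 and 0 in each other comparison. With at least 15 percentage points, 4 remained in all, 1 in blood at week 8 and 0 in blood at week 24. The share of coding genes with a window in the gene body alone was 1.81%, 1.30% and 1.73% in hippocampus at weeks 3, 8 and 24, and 1.90%, 13.1% and 0.901% in blood. Over all genes of the table, with 10 kb, it was 1.79%, 1.29% and 1.66% in hippocampus and 1.97%, 12.3% and 0.940% in blood. The share of positions called in bodies of coding genes in blood at week 8 was 0.273%. Genes of the partner list with a window of at least 15 points numbered 4, 3 and 2 in hippocampus at weeks 3, 8 and 24, and 4, 8 and 1 in blood. The other counts stayed within 1.5 times, and the other shares within the 95% exact binomial interval, of the reported value. For the members that interval is wide, from 0.000911% to 0.200% around 0.0360% in hippocampus at week 3, and it takes neighbouring positions as independent. A member share that stays within it therefore says little. Leaving out a replicate was not run because the deposited list holds no value per library. No paired analysis was possible because the result comes from no test over libraries. Coverage, and so what depth limits, is unknown.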
